A study of Mus musculus with 6 samples.

Results

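The genes described here are 10 kinases and adaptors that carry the signal of the pre-B cell receptor, namely the Src family kinases Lyn, Blk and Fyn, the tandem-SH2 kinases Sykb (the symbol of the annotation for Syk) and Zap70, the adaptors Blnk and Lcp2, the Tec family kinase Btk, the phospholipase Plcg2 and the ubiquitin ligase Cblb. They were taken by symbol from a list chosen with earlier results of these data known. They make up 10 of the 37991 genes counted, and all 10 passed the filter on low counts. RNA-seq was performed on primary pre-B cells of bone marrow from C57BL/6 mice at 3 stages, with 2 libraries at each and individual animals as replicates. Wild type (wt) mice were 4 to 6 weeks old and without the transgene. Premalignant (prem) mice were heterozygous for Eμ-Myc and also 4 to 6 weeks old, and malignant (mal) mice had the same genotype at 10 to 20 weeks, with established lymphoma. In Eμ-Myc mice the immunoglobulin heavy chain enhancer drives Myc in B lineage cells. Malignant mice were therefore older than the others, and by the methods they were of both sexes where the others were female, so age, sex and stage cannot be told apart in the comparisons with malignant cells. The sample labels give 1 gate for all stages, B220 high with low IgM and IgD, which can hold pro-B as well as pre-B cells. The methods of the study give that gate for wild type and premalignant cells, and describe malignant cells as positive for B220 and negative for IgM and IgD, so a difference in gate cannot be told apart from stage either.

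The pre-B cell receptor pairs a newly made μ heavy chain with the surrogate light chain, and signals through the Igα and Igβ chains. Src family kinases phosphorylate the tails of these chains, Syk docks there and phosphorylates Blnk, and Blnk brings Btk to phospholipase Cγ2, which opens the calcium and protein kinase C branches. Zap70 and Lcp2 (SLP-76) hold the matching places of Syk and Blnk in the T cell receptor pathway, and Cblb marks activated kinases and receptors for removal.

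Total counts lay between 30031100 and 53453055 per library, so that 3 counts equal 0.0526 to 0.108 CPM (counts scaled to library size, here with the TMM factors of edgeR). The replicate 1 libraries were the deeper ones at every stage. Counts of Myc followed the labels, with 33.8 and 41.4 CPM in wild type cells against 1155 to 1732 CPM in the 4 transgenic libraries. Cd79a (732 to 1480 CPM) was high in all 6 libraries. Summed over 11 pro-B and pre-B cell markers, the level was 7044 and 7725 CPM in wild type, 3225 and 3166 CPM in premalignant and 2693 and 2525 CPM in malignant cells, and all 11 were lower in malignant than wild type cells. Markers of other cells moved with stage too. Natural killer (NK) cell markers summed to 259 and 82.0 CPM in wild type cells and to 3.80 to 13.6 CPM in the transgenic libraries, and all 7 were called lower in premalignant cells. T cell markers summed to 104 and 54.9 CPM in wild type, 36.1 and 17.7 CPM in premalignant and 3.08 and 18.5 CPM in malignant cells, with 6 of 9 tested lower in premalignant cells. The sums of myeloid markers were 1002 and 2241 CPM in wild type, 304 and 330 CPM in premalignant and 75.6 and 145 CPM in malignant cells, and all 10 were lower in premalignant cells. Erythroid markers summed to 294 and 1084 CPM in wild type cells and to 52.5 to 138 CPM in the transgenic libraries. Plasma cell markers summed to 175 and 152 CPM in wild type cells and to 49.2 to 86.9 CPM in the transgenic libraries. Of 4 tested, 3 were lower in premalignant cells. The sums of 5 mature B cell markers lay between 483 and 681 CPM in all 6 libraries. Of these 5, 3 were called lower and Cd22 higher in malignant vs wild type cells. The part of these other cells in the results below was not tested, except where a value is given beside a result. In these bulk samples, fewer cells of a type and less RNA per cell cannot be told apart.

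**Figure D1:**
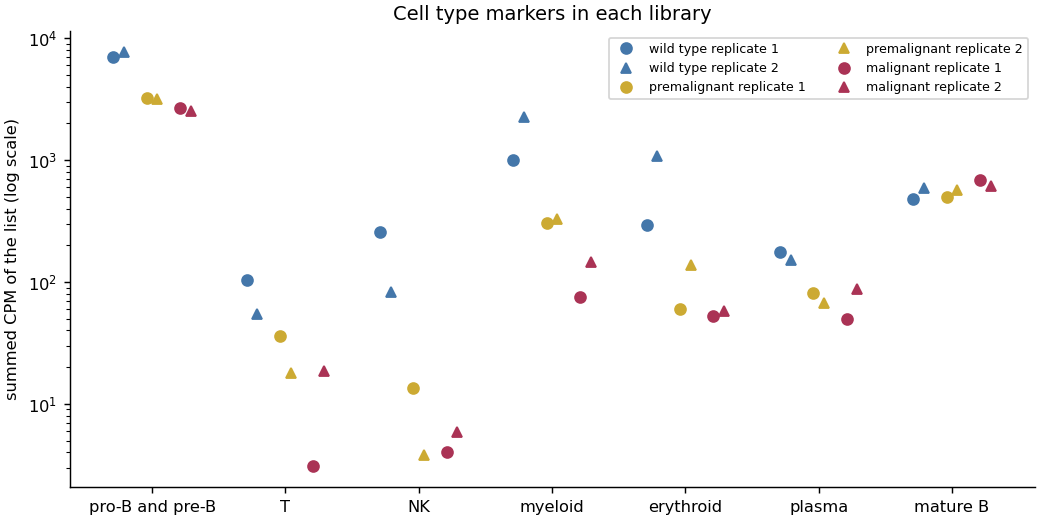
Summed CPM (log scale) of 7 lists of cell type markers, with a circle for replicate 1 and a triangle for replicate 2 of wild type (blue), premalignant (yellow) and malignant (red) cells. Pro-B and pre-B cell markers have the highest sum in all 6 libraries, and NK, T, myeloid, erythroid and plasma cell markers are highest in the 2 wild type libraries.

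The first question was whether the signalling genes differ between stages. A gene was called when edgeR's quasi-likelihood test gave an adjusted p no higher than 0.1 and a log2 fold change of 0.5 or more in either direction. In premalignant vs wild type cells 7 of the 10 genes were lower and 0 were higher, where 20.3% of all 16683 genes tested were called lower and 39.3% in either direction. Those 7 were Lyn, Blk, Fyn, Sykb, Zap70, Blnk and Lcp2. The median log2 fold change of the 10 genes was -0.96, against -0.081 over all genes tested, and for none of the 10 did the 2 premalignant values overlap the wild type values, a separation that 77.4% of all genes tested also showed. In malignant vs wild type cells 7 were again lower and 0 higher, now with Cblb and without Zap70, against 24.3% of all genes lower and 49.2% called in either direction. The median was -1.03, against -0.019 over all genes, and the libraries of 8 genes stood apart, the exceptions being Plcg2 and Zap70, against 71.7% of all genes. Both comparisons share the wild type libraries. Because the 10 genes were chosen with earlier results of these data known, their counts beside these shares are not independent evidence. With total counts as library size all genes tested split into 4438 lower and 2247 higher instead of 3394 and 3169 for premalignant vs wild type cells, and into 5367 and 2957 instead of 4059 and 4153 for malignant vs wild type cells, while the number of the 10 genes called stayed at 7 in each. Between malignant and premalignant cells the test called 0 of the 10 genes, against 2.45% of all genes lower and 6.18% called in either direction. Only Lcp2 had an unadjusted p below 0.05 there, and DESeq2 called 1 of the 10, also Lcp2. The median of the 10 in that comparison was -0.21, against 0.043 over all genes, and the libraries of 5 of the 10 stood apart, against 51.1% of all genes. Upper-quartile normalization split all genes there into 492 lower and 487 higher instead of 408 and 623, and still called 0 of the 10.

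In premalignant vs wild type cells fewer genes were called when either stage was left with 1 library, over all genes as well as among these 10. Without premalignant replicate 2 the count fell from 7 to 2 and without premalignant replicate 1 to 3, and in both cases Lyn and Blnk were among the genes still called. Over all genes tested the calls fell from 6563 to 2094 and 2503 in the same fits. Leaving out either wild type library also lowered the count, among these 10 and over all genes tested. In malignant vs premalignant cells, leaving out malignant replicate 1 called Sykb lower and Fyn and Zap70 higher. Leaving out malignant replicate 2 instead called Lcp2, Plcg2 and Cblb lower, so the 3 genes called differed entirely with the library left out. Over all genes the calls rose from 1031 to 2668 and 3805 in these fits.

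**Figure D2:**
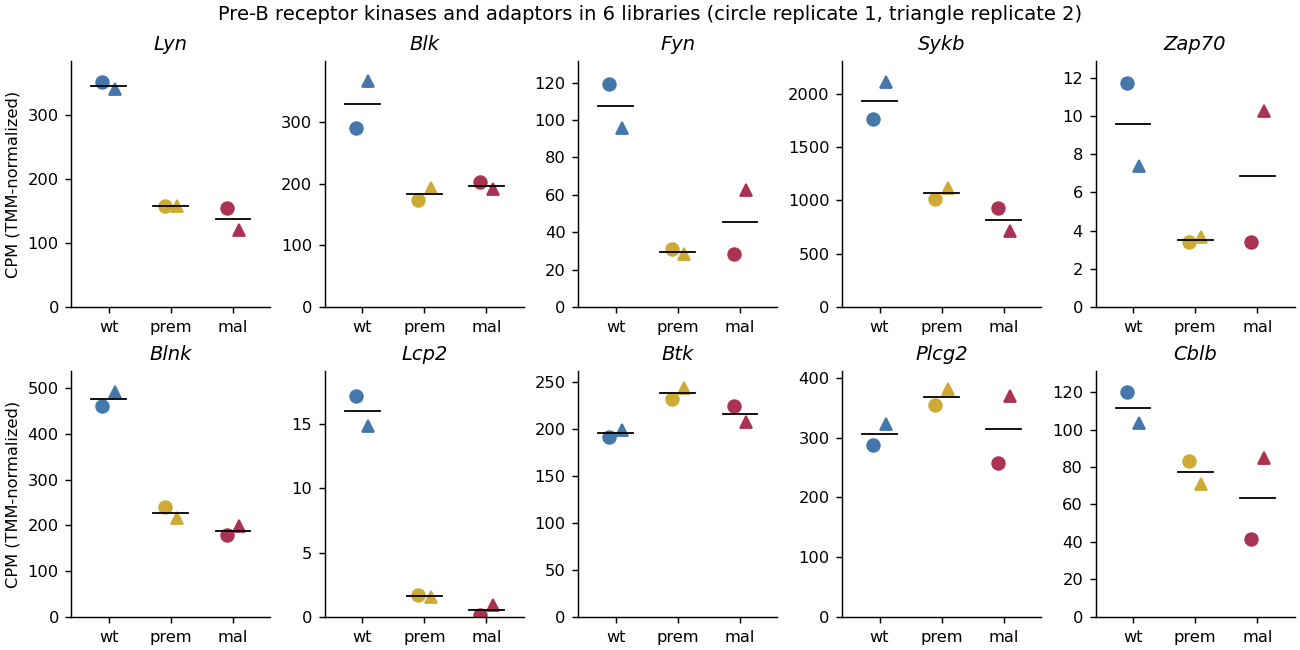
CPM of each of the 10 genes in every library, with circles for replicate 1, triangles for replicate 2 and a bar at the mean of each stage (wt, wild type, blue; prem, premalignant, yellow; mal, malignant, red). Wild type points of Lyn, Blk, Fyn, Sykb, Blnk, Lcp2 and Cblb lie above the other 4 points, whereas those of Btk lie below them.

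Lyn and Blk are the Src family kinases that B lineage cells use most. Lyn stood at 350 and 340 CPM in wild type, 157 and 157 CPM in premalignant, and 154 and 121 CPM in malignant cells. Both wild type libraries were far above the other 4. Relative to wild type, Lyn was 2.19-fold lower in premalignant cells (log2 fold change -1.13, SE 0.157, adjusted p = 0.00504) and 2.51-fold lower in malignant cells (-1.33, SE 0.157, adjusted p = 0.00180). It was called in both comparisons under every alternative run. Lyn also acts as an inhibitor, since it phosphorylates the tails of inhibitory receptors. The myeloid lineage expresses Lyn as well, and the myeloid marker sums given above (1002 and 2241 CPM in wild type) fell at the same stages. Their part in the result was not tested. Exons of Lyn (mm9 chr4:3605262-3740269, plus strand) share 248 bp with the antisense gene Gm17726, which had 8 to 108 counts per library, and without strand those reads cannot be told apart.

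Blk (mm9 chr14:63991674-64036024, minus strand) had 291 and 367 CPM in wild type, 173 and 192 CPM in premalignant, and 203 and 191 CPM in malignant cells. The wild type values were the highest, and the premalignant and malignant values overlapped. The log2 fold change was -0.85 (SE 0.160, adjusted p = 0.0123) for premalignant and -0.74 (SE 0.159, adjusted p = 0.0124) for malignant vs wild type cells. Without premalignant replicate 1 or 2 the adjusted p of the premalignant comparison was 0.126 or 0.102.

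Fyn (mm9 chr10:39088661-39285187, plus strand) is expressed across lymphocytes and is prominent in T cells. Its levels were 120 and 95.6 CPM in wild type, 31.0 and 28.3 CPM in premalignant, and 28.2 and 62.8 CPM in malignant cells. Malignant replicate 1 lay just below both premalignant libraries, while malignant replicate 2 was 2.23-fold above malignant replicate 1 and below both wild type libraries. Fyn was 3.63-fold lower in premalignant than wild type cells (log2 fold change -1.86, SE 0.370, adjusted p = 0.0143) and 2.37-fold lower in malignant cells (-1.25, SE 0.364, adjusted p = 0.0344). Omitting premalignant replicate 2 gave an adjusted p of 0.114 for the premalignant call, and omitting wild type replicate 1 gave 0.157 for the malignant call. Between the replicate 1 libraries the malignant vs wild type log2 difference was -2.09, and between the replicate 2 libraries it was -0.61. By the labels such libraries share only a number, and no pairing is given. The T and NK cell marker sums fell in the same libraries as Fyn, and their part in the result was not tested.

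Summed per length, the RPKM of Lyn, Blk and Fyn was 242 at the wild type stage, 119 at the premalignant and 124 at the malignant stage, as means of 2 libraries. Of the 5 other Src family kinases, which were not members of the set, 3 were lower and Yes1 was higher in premalignant cells. Fgr, a myeloid kinase, had 36.4 and 37.8 CPM in wild type and 2.53 to 9.89 CPM in the other libraries, and was called lower in both comparisons with wild type. The myeloid marker sums, at 1002 and 2241 CPM in wild type, fell beside it, and their part in the result was not tested. Yes1, which is broadly expressed, ran the other way, from 1.09 and 1.02 CPM in wild type through 4.57 and 4.82 CPM in premalignant to 7.74 and 12.6 CPM in malignant cells (log2 fold change 2.15, SE 0.354, adjusted p = 0.00815 in premalignant and 3.27, SE 0.367, adjusted p = 0.00154 in malignant vs wild type cells).

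Sykb (mm9 chr13:52678542-52744161, plus strand) encodes Syk, the main kinase that carries the signal of the pre-B receptor onward, with Zap70 able to replace it in part. It was the most abundant of the 10 genes at every stage. Its level was 1763 and 2110 CPM in wild type, 1018 and 1122 CPM in premalignant, and 926 and 713 CPM in malignant cells. The 3 stages did not overlap, with wild type highest and malignant lowest. Sykb was 1.81-fold lower in premalignant than wild type cells (log2 fold change -0.86, SE 0.194, adjusted p = 0.0212) and 2.36-fold lower in malignant than wild type cells (-1.24, SE 0.196, adjusted p = 0.00442). The step from premalignant to malignant cells was -0.38 (SE 0.193, adjusted p = 0.336) and did not pass the test. The premalignant call was lost without wild type replicate 2 (adjusted p = 0.125), premalignant replicate 1 (adjusted p = 0.177) or premalignant replicate 2 (adjusted p = 0.144).

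Zap70 (mm9 chr1:36818695-36839663, plus strand), the Syk relative of T and NK cells, was low throughout. It measured 11.7 and 7.39 CPM in wild type, 3.37 and 3.68 CPM in premalignant, and 3.41 and 10.2 CPM in malignant cells. The premalignant libraries lay below wild type, malignant replicate 1 fell among the premalignant values and malignant replicate 2 among the wild type values. The premalignant fall was 2.71-fold (log2 fold change -1.44, SE 0.549, adjusted p = 0.0931), and it was not called once wild type replicate 1, wild type replicate 2, premalignant replicate 1 or premalignant replicate 2 was left out (adjusted p = 0.337, 0.175, 0.311 and 0.295). The malignant vs wild type value was -0.49 (SE 0.538, adjusted p = 0.504). It was -1.78 between the replicate 1 libraries, not paired by the labels, and 0.47 between those of replicate 2. In wild type cells Zap70 was higher in replicate 1, as were the NK and T cell marker sums. In malignant replicate 2, where Zap70 was 3.01-fold above malignant replicate 1, the NK marker sum was 5.92 CPM against 4.02 CPM in malignant replicate 1, and the sum of 10 T cell markers was 18.5 CPM against 3.08 CPM. Of these, Cd8a (6.45 against 0.230 CPM), Thy1 (5.99 against 0.126 CPM), Cd4 (2.40 against 0.126 CPM) and Cd5 (1.08 against 0.126 CPM) were higher there along with Zap70. Cd3e (0.108 against 0.0418 CPM), Cd3g (0.251 against 0.105 CPM) and Lat (1.255 against 0.732 CPM) were also higher, on 2 to 35 counts. Cd3d (0.681 against 0.711 CPM), Cd247 (0.323 against 0.858 CPM) and Trat1 (0 against 0.0209 CPM) were lower there. The part of such cells in the Zap70 value was not tested.

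The adaptors Blnk and Lcp2 both fell, by very different amounts. Blnk (mm9 chr19:41003417-41069025, minus strand), also called SLP-65, is the scaffold on which Btk and Plcg2 meet in B cells. It had 461 and 491 CPM in wild type, 240 and 217 CPM in premalignant, and 178 and 198 CPM in malignant cells. The stages did not overlap and the replicates lay close together. The log2 fold change was -1.06 (SE 0.137, adjusted p = 0.00421) in premalignant and -1.34 (SE 0.138, adjusted p = 0.00123) in malignant vs wild type cells, and both calls were kept in all alternatives run. Malignant vs premalignant cells gave -0.28 (SE 0.136, adjusted p = 0.326).

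Lcp2 (mm9 chr11:33946920-33992295, plus strand) showed the largest fall of the 10. Its counts were 980 and 524 in wild type, 90 and 51 in premalignant, and 8 and 25 in malignant cells, which correspond to 17.2 and 14.8, 1.72 and 1.54, and 0.167 and 0.896 CPM. Each stage stood below the one before it. Lcp2 was 9.82-fold lower in premalignant than wild type cells (log2 fold change -3.30, SE 0.673, adjusted p = 0.0156) and 31.5-fold lower in malignant than wild type cells (-4.98, SE 0.746, adjusted p = 0.00379). The drop between premalignant and malignant cells was -1.68 (SE 0.686, unadjusted p = 0.0479, adjusted p = 0.247), and DESeq2 gave an adjusted p of 0.0736 for it. Malignant replicate 2 was 5.36-fold above malignant replicate 1. The malignant vs wild type log2 difference was -6.68 between the replicate 1 libraries, not paired by the labels, and -4.05 between those of replicate 2. The premalignant call was lost without premalignant replicate 1 (adjusted p = 0.114) or premalignant replicate 2 (adjusted p = 0.125). The study chose Lcp2 among its listed genes on these libraries, so its direction is not independent evidence. Lcp2 is also expressed by T, NK and myeloid cells, whose markers were highest in the same wild type libraries, and their part in the result was not tested. Its exons share 88 bp with the antisense gene 4930469K13Rik, which had 8 and 9 counts in wild type and 0 in the other libraries.

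Among the 13 other adaptors, 7 were lower and 0 higher in premalignant than wild type cells. Gab1, a docking protein for SHP-2 and PI3K, went from 11.2 and 9.57 CPM in wild type to 0.934 and 0.603 CPM in premalignant and 0.0209 and 0.323 CPM in malignant cells. Its relative Gab2 went from 26.5 and 27.5 CPM through 3.81 and 2.38 CPM to 0.565 and 1.33 CPM. Both were called lower in premalignant and malignant vs wild type cells. Lat2, a membrane adaptor of B, NK and mast cells, rose instead in malignant cells, to 42.2 and 79.1 CPM from 17.1 and 15.1 CPM in premalignant cells (log2 fold change 1.91, SE 0.304, adjusted p = 0.0370).

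The promoters of a gene that fell steeply, of its relative, of the central kinase and of a gene that was not called are printed to let their sequences be compared. RefSeq promoter windows of 300 bases (GRCm38.p6, another build than the mm9 coordinates of the genes) were found for 8 of the 10 genes, and not for Lyn and Blk. They were searched on both strands for CACGTG (the E-box that Myc and its relatives can bind), TGTGGT (Runx-type) and GAGGAA (PU.1-type). These letters occur in 7.15%, 16.8% and 28.3% of all 32851 windows. Capitals mark a match, each window is given 5′ to 3′ on the strand of the gene, and they are Sykb at its first listed start (chr13:52583187-52583486, plus strand), Blnk (chr19:40994172-40994471, minus strand), Lcp2 (chr11:34046678-34046977, plus strand) and Plcg2 (chr8:117498025-117498324, plus strand).
Sykb: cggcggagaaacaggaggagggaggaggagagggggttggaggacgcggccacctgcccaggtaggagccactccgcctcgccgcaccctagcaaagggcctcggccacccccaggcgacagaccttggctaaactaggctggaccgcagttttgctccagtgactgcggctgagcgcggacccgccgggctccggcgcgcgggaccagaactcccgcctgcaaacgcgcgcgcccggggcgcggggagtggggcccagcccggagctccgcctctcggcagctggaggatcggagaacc
Blnk: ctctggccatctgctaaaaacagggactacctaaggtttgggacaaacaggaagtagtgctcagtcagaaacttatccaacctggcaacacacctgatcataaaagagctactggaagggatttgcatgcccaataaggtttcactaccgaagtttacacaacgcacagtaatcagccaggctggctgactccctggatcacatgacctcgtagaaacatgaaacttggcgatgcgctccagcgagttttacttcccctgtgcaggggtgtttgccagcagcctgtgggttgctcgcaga
Lcp2: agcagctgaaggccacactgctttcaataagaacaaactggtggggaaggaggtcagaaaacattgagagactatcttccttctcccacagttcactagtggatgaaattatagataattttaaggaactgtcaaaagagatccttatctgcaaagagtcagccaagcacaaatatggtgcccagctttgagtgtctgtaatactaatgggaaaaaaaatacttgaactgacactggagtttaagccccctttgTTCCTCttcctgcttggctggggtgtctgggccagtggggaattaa
Plcg2: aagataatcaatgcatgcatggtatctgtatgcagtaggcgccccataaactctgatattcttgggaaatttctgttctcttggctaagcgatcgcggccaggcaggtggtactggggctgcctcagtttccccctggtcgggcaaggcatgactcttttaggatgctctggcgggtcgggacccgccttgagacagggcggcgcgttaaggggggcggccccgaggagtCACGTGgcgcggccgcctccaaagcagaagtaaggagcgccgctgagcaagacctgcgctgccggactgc
Sykb at this start and Blnk hold none of the 3 motifs, as does Fyn. Lcp2 holds 1 match to GAGGAA, read on the opposite strand as TTCCTC, and Plcg2 holds 1 CACGTG. Of the windows not printed, Btk holds 1 GAGGAA, Cblb 2 and the other listed start of Sykb 1. Of the 3 listed Zap70 starts, 1 has a GAGGAA, 1 has a GAGGAA and a TGTGGT, and 1 has a CACGTG. A match describes letters only, and no binding was measured here.

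Btk and Plcg2, the pair that Blnk joins, were called in none of the 3 comparisons, and had the only positive log2 fold changes of the 10 genes in premalignant vs wild type cells. Btk (mm9 chrX:131076875-131118109, minus strand) phosphorylates phospholipase Cγ2 once PI3K has made its membrane anchor. It measured 191 and 199 CPM in wild type, 231 and 244 CPM in premalignant, and 224 and 207 CPM in malignant cells. All 4 transgenic libraries were above both wild type libraries, but by less than the fold required for a call. The log2 fold change was 0.28 (SE 0.125, adjusted p = 0.130) in premalignant vs wild type cells. In malignant vs wild type cells it was 0.15 (SE 0.125, adjusted p = 0.390) and turned to -0.022 with upper-quartile normalization and to -0.15 with total counts as library size. DESeq2 gave an adjusted p of 0.0401 for the premalignant difference, which stayed under the fold for a call.

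Plcg2 (mm9 chr8:120022191-120159040, plus strand) cleaves the membrane lipid PIP2 into the messengers that release calcium and activate protein kinase C. Its levels were 287 and 324 CPM in wild type, 354 and 382 CPM in premalignant, and 258 and 370 CPM in malignant cells. The malignant values overlapped both other stages. None of the 3 comparisons was called, with log2 fold changes of 0.27 (SE 0.198, adjusted p = 0.339) in premalignant vs wild type, -0.23 (SE 0.198, adjusted p = 0.591) in malignant vs premalignant and 0.04 (SE 0.198, adjusted p = 0.892) in malignant vs wild type cells. The last of these turned negative with upper-quartile normalization (-0.13), with total counts as library size (-0.25), and with a minimum of 10 counts in every library (-0.049).

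Plcg1, the phospholipase of T cells and many other tissues, behaved differently from Plcg2. It fell at each step, from 128 and 159 CPM in wild type to 33.6 and 35.9 CPM in premalignant and 7.82 and 8.89 CPM in malignant cells. The 3 stages stood far apart and the replicates close together. The log2 fold changes were -2.04 (SE 0.169, adjusted p = 0.00183) and then -2.06 (SE 0.172, adjusted p = 0.0113). All 4 other Tec family kinases were lower in premalignant cells, among them Txk (7.87 and 2.75 CPM in wild type, 0.534 and 0.271 CPM in premalignant cells) and Tec itself (47.6 and 50.7 CPM in wild type, 30.8 and 33.9 CPM in premalignant cells).

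Cblb (mm9 chr16:52031662-52208160, plus strand) encodes a ubiquitin ligase that dampens antigen receptor signalling. It was at 120 and 103 CPM in wild type, 83.4 and 71.2 CPM in premalignant, and 41.8 and 85.0 CPM in malignant cells. The wild type values were highest, and the malignant values lay on either side of the premalignant ones. Premalignant vs wild type cells gave -0.53 (SE 0.322, adjusted p = 0.253), which was not called, although leaving out malignant replicate 1 gave an adjusted p of 0.0230. Malignant vs wild type cells gave -0.82 (SE 0.324, adjusted p = 0.0865), a call that held without malignant replicate 2 but not without any other library. The adjusted p was 0.277 and 0.183 without wild type replicates 1 and 2, 0.141 without either premalignant library and 0.116 without malignant replicate 1. A fit of only those 2 stages gave 0.141 as well.

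**Figure D3:**
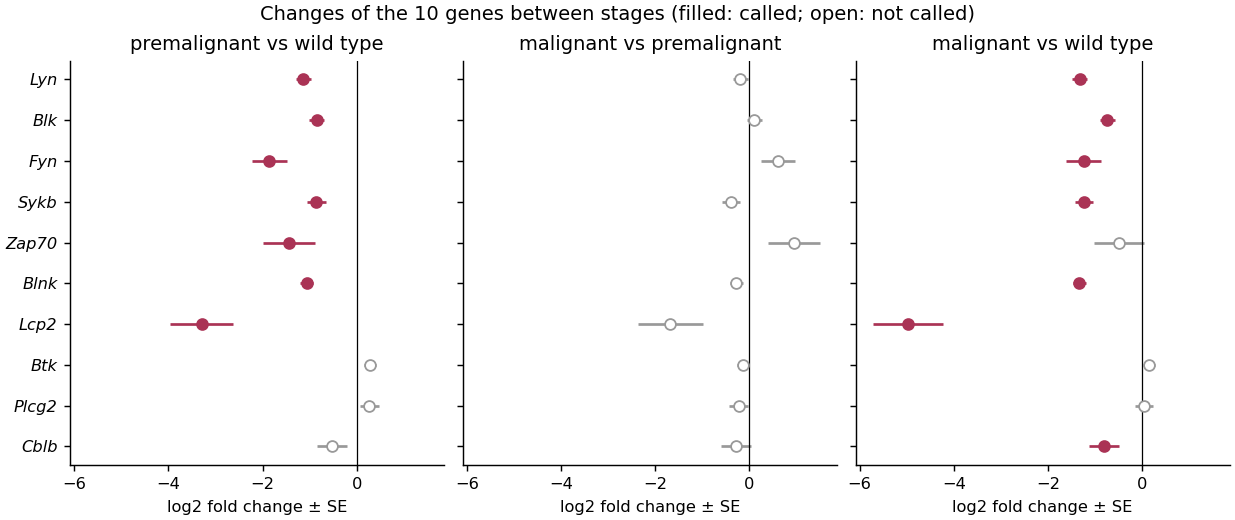
Log2 fold change (horizontal axis) of the 10 genes in the 3 comparisons from edgeR, with bars of 1 standard error, filled where called and open where not. In both comparisons with wild type 7 points are filled, all to the left of 0, and in malignant vs premalignant cells none is filled.

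Levels were compared between genes per length, as RPKM from the same scaling and the exon lengths of the annotation. In wild type cells Sykb led at 207 ± 26.2 RPKM (SD, n = 2), followed by Blk (133), Lyn (84.7), Blnk (79.5), Plcg2 (71.0), Btk (61.9), Fyn (24.7), Cblb (17.0), Zap70 (4.10) and Lcp2 (3.59). Neighbours in this order did not overlap between libraries, other than Zap70 and Lcp2. In premalignant cells Sykb was still first at 114 ± 7.87 RPKM (SD, n = 2), but Plcg2 (85.6) and Btk (75.4) moved ahead of Blk (73.9), Lyn (38.6) and Blnk (38.1). Btk and Blk overlapped there, as did Lyn and Blnk. Malignant cells had Sykb at 87.5 ± 16.1 RPKM (SD, n = 2), with libraries at 99.0 and 76.1 on either side of those of Blk (82.0 and 77.1). Below them came Plcg2 (73.0), Btk (68.5), Lyn (33.8) and Blnk (31.4). Plcg2 overlapped Sykb, Blk and Btk there, Lyn overlapped Blnk, and Fyn (10.4) overlapped Cblb (9.65). Lcp2 was last at every stage, at 0.119 RPKM in malignant cells. These levels are descriptions without a test.

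Because related genes share a library, their ratio does not depend on how the libraries were scaled. In wild type cells Sykb exceeded Zap70 by 37.4-fold and 71.1-fold per length. The excess was 75.1-fold and 76.0-fold in premalignant cells and 67.6-fold and 17.3-fold in malignant cells. Malignant replicate 2 therefore had the smallest excess of all 6 libraries. Blnk exceeded Lcp2 by 20.0-fold and 24.6-fold in wild type, 104-fold and 105-fold in premalignant, and 793-fold and 165-fold in malignant cells. This ratio rose at each stage without overlap, and the malignant value of 793-fold rests on 8 counts of Lcp2. Lyn exceeded Fyn by 3.14-fold and 3.80-fold in wild type, 5.43-fold and 5.97-fold in premalignant, and 5.87-fold and 2.06-fold in malignant cells. Malignant replicate 2 had the smallest excess of the 6 libraries, and malignant replicate 1 lay between the premalignant values. Plcg2 exceeded Plcg1 by 4.11-fold and 3.72-fold in wild type, 19.3-fold and 19.4-fold in premalignant, and 60.2-fold and 76.1-fold in malignant cells. A ratio within a library shows unequal change only, and not which gene of the pair changed.

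**Figure D4:**
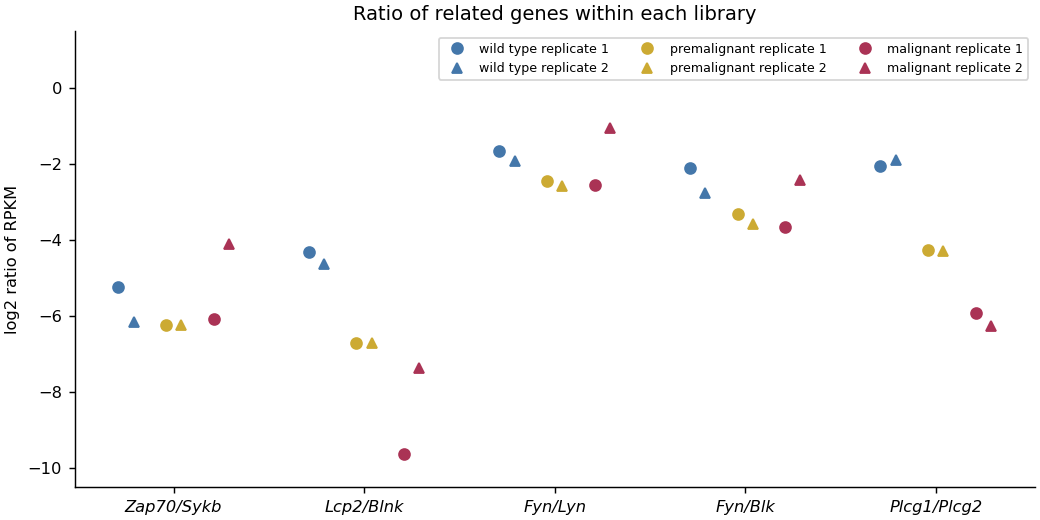
Log2 ratio of RPKM (vertical axis) of related genes within each library, with the relative of lower level first in each name, circles for replicate 1 and triangles for replicate 2. Lcp2/Blnk and Plcg1/Plcg2 step down from wild type (blue) through premalignant (yellow) to malignant cells (red), while malignant replicate 2 lies above malignant replicate 1 for Zap70/Sykb, Fyn/Lyn and Fyn/Blk.

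Malignant replicates differed more than the replicates of the other stages, with a median absolute log2 difference over all genes of 0.323, against 0.214 in wild type and 0.130 in premalignant cells. Among the 10 genes, replicate 2 exceeded replicate 1 by 5.36-fold for Lcp2, 3.01-fold for Zap70, 2.23-fold for Fyn and 2.03-fold for Cblb. Sykb (0.769), Lyn (0.781), Btk (0.922), Blk (0.940) and Blnk (1.11) had ratios of replicate 2 to replicate 1 close to or below 1. Lck, the Src family kinase of T cells, differed by 5.38-fold, at 11.9 and 64.1 CPM in the 2 malignant libraries. In wild type cells Lck was at 53.2 and 40.0 CPM and in premalignant cells at 11.4 and 9.37 CPM (log2 fold change -2.17, SE 0.711, adjusted p = 0.0628). The summed T cell markers were also higher in malignant replicate 2 (18.5 CPM) than in malignant replicate 1 (3.08 CPM). In replicate 2 that sum was below both wild type sums (104 and 54.9 CPM), whereas Lck was above both wild type values. In replicate 1 it was below both premalignant sums (36.1 and 17.7 CPM), whereas Lck was slightly above both premalignant values. The part of T cells in these differences was not tested.

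The genes were set beside 82 other genes of the pathway, from lists also chosen with earlier results of these data known. In premalignant vs wild type cells 47 of the 82 were lower and 2 higher, with a median log2 fold change of -0.77, where 20.3% of all genes were called lower and 39.3% in either direction. Malignant vs wild type cells had 41 lower and 5 higher (median -0.57), against 24.3% lower and 49.2% in either direction over all genes. Malignant vs premalignant cells had 6 lower and 7 higher (median -0.050), against 2.45% of all genes lower and 6.18% called in either direction. The counts of every list, above and below and with the cell type markers, are to be read against these shares. Without premalignant replicate 1 or 2 the premalignant count of 49 calls fell to 16 and 13, and without wild type replicate 1 or 2 to 31 and 30. For malignant vs premalignant cells the 13 calls became 0 without either premalignant library, 3 without either wild type library and 30 without either malignant library. Over all genes the 1031 calls became 0 without either premalignant library, 244 and 239 without wild type replicate 1 and 2, and 2668 and 3805 without malignant replicate 1 and 2.

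All 6 receptor and signalling chains were lower in premalignant than wild type cells. Vpreb1, part of the surrogate light chain, went from 114 and 131 CPM in wild type to 9.74 and 4.88 CPM in premalignant and 0.146 and 4.05 CPM in malignant cells, and Vpreb2 from 12.3 and 16.9 CPM to 0.438 and 0.301 CPM in premalignant cells. Vpreb1 and Vpreb2 are near-identical copies, so how reads were split between them is uncertain. Igll1, the other part, had 197 and 195 CPM in wild type cells against 18.8 and 9.58 CPM in premalignant cells. The falls of Cd79a (log2 fold change -0.63, SE 0.190, adjusted p = 0.0493) and Cd79b (-0.81, SE 0.149, adjusted p = 0.0117), which encode Igα and Igβ, were smaller.

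In the PI3K branch 6 of 11 genes were lower in premalignant cells and 0 were higher. Foxo1, the transcription factor that PI3K signalling holds out of the nucleus, fell from 311 and 289 CPM to 84.2 and 79.6 CPM (log2 fold change -1.87, SE 0.137, adjusted p = 0.00159). Pik3ap1 (BCAP), an adaptor that recruits PI3K, fell at both steps, from 642 and 644 CPM through 211 and 175 CPM to 101 and 75.0 CPM (-1.73, SE 0.191, adjusted p = 0.00284, then -1.14, SE 0.188, adjusted p = 0.0408). Pik3cg, a catalytic subunit, also fell at both (-0.84, SE 0.170, then -0.71, SE 0.170). In the calcium, protein kinase C and NF-κB branch 9 of 13 were lower in premalignant cells. Itpr2, a calcium release channel, fell from 145 and 203 CPM to 53.9 and 62.4 CPM. Malt1, a protease of the NF-κB branch, rose in malignant vs premalignant cells (log2 fold change 0.73, SE 0.168, adjusted p = 0.0864). Its malignant libraries, at 87.9 and 117 CPM, overlapped wild type cells at 109 and 116 CPM.

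In the Ras, Vav and MAPK branch only 1 of 11 genes was lower and 1 higher in premalignant cells, and they are relatives. Rasgrp3, a Ras activator of B cells, fell from 16.9 and 17.5 CPM to 2.06 and 1.51 CPM in premalignant and 0.439 and 0.430 CPM in malignant cells. Rasgrp1, better known from T cells, rose from 129 and 149 CPM to 199 and 244 CPM in premalignant cells (log2 fold change 0.67, SE 0.155, adjusted p = 0.0229). Vav3, an exchange factor for Rac, stood at 17.4 and 17.0 CPM in wild type, 5.85 and 3.95 CPM in premalignant, and 0.105 and 1.76 CPM in malignant cells. Its stages did not overlap, and it was called lower in malignant vs wild type cells (log2 fold change -4.27, SE 1.07, adjusted p = 0.0207) but not in premalignant vs wild type cells (-1.81, SE 0.942, adjusted p = 0.190).

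Among the 19 inhibitors and phosphatases, 11 were lower and 0 higher in premalignant cells, and 2 were lower and 4 higher in malignant vs premalignant cells. Spry2, an inhibitor of Ras signalling, fell at both steps, from 25.9 and 27.7 CPM through 2.57 and 1.93 CPM to 0.167 and 0.359 CPM. Cd72, an inhibitory coreceptor of B cells, did too, from 512 and 726 CPM through 299 and 250 CPM to 98.6 and 110 CPM. Fcgr2b, the inhibitory Fc receptor of B cells, dipped and then rose, with 61.8 and 66.7 CPM in wild type, 35.1 and 35.9 CPM in premalignant, and 274 and 163 CPM in malignant cells (log2 fold change 2.62, SE 0.258, adjusted p = 0.0148 at the last step). Ptpn22, a phosphatase that acts on Src family kinases, rose from 1.45 and 1.57 CPM in premalignant to 9.79 and 40.8 CPM in malignant cells (4.07, SE 0.720, adjusted p = 0.0479), and its malignant libraries differed by 4.17-fold. Ptpn6 (SHP-1) and Ubash3b were the other 2 that rose at this step, by 0.56 and 1.34 on the log2 scale. Cd22, a sialic acid receptor that recruits SHP-1, was called higher in malignant vs wild type cells (0.90, SE 0.234, adjusted p = 0.0232). Dok2 (-2.91, SE 0.740, premalignant vs wild type) and Ubash3a (-3.46, SE 0.949, malignant vs wild type) were lower.

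**Figure D5:**
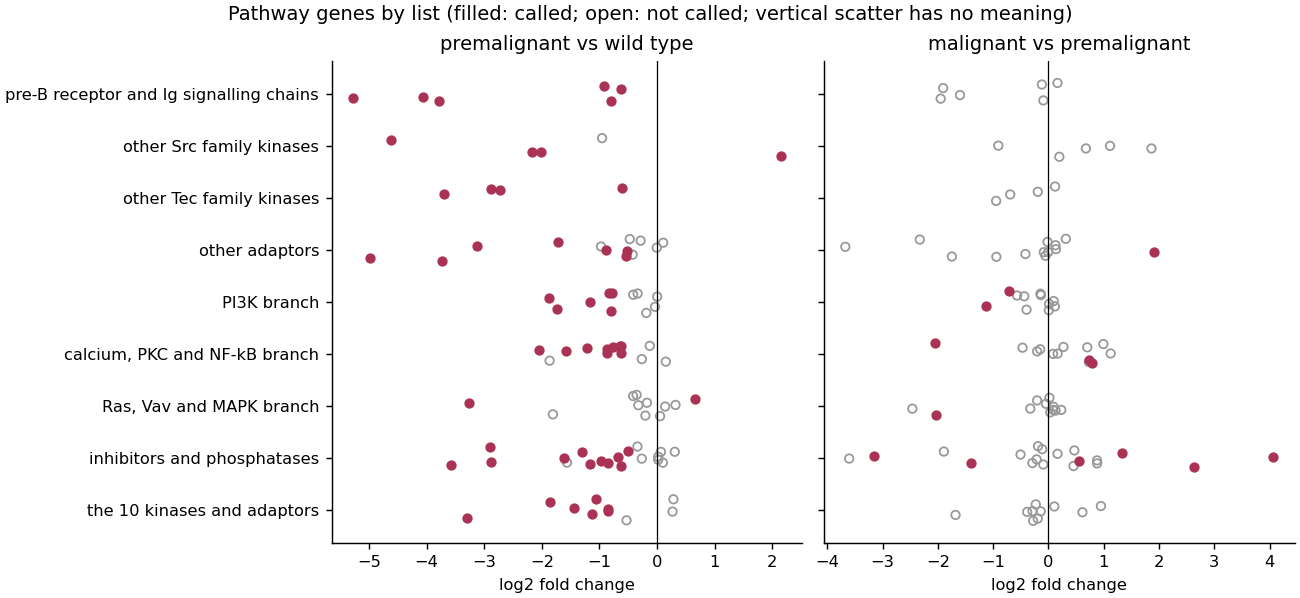
Log2 fold change (horizontal axis) of the pathway genes by list in premalignant vs wild type and malignant vs premalignant cells, filled where called. On the left 47 of 82 genes outside the set of 10 are filled below 0 and 2 above 0, and on the right 6 and 7 are.

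Likeness was the Pearson r over the 6 libraries of log2 CPM, taken after 0.5 was added to each CPM. This offset narrows differences at low levels, such as those of Lcp2 in malignant cells (0.167 and 0.896 CPM). The genes most like Lcp2, the gene with the largest fall, were Cdkn1b (r = 0.999), Rell1 (r = 0.999) and Zyx (r = 0.997). In all, 30 of 8884 genes compared had r over 0.99 with Lcp2. For Btk, the gene with the most positive malignant vs wild type value, they were Sf3b2 (r = 0.988) and Arl2 (r = 0.985), and 0 of 8883 genes had r over 0.99. These correlations describe libraries that share stage and depth, and carry no test.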

How the data were processed

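Pre-B cell RNA was selected by poly(A) tail and sequenced with a kit that does not mark strand. The authors processed reads with CASAVA 1.8.2, aligned them to mm9 with TopHat 2.0.8b and deposited raw counts per Ensembl gene from HTSeq, whose version and options are not given in the sources used here. They also deposited tables of their own DESeq comparisons, which were not used. Here GENCODE vM1 gave symbols for 37205 of 37991 identifiers, loci and exon lengths. All 6 libraries entered 1 edgeR 4.0.16 quasi-likelihood fit (R 4.3.3) with stage as the only term, TMM factors, filterByExpr and Benjamini-Hochberg adjustment over the 16683 genes tested. Calls needed an adjusted p no higher than 0.1 and a log2 fold change of 0.5 or more in either direction. SE was the fold change over the square root of F. Alternatives were DESeq2 1.42.0, other scalings, filters and thresholds, fits of 2 stages, a replicate block and leaving out each library. The fits were tested on simulated data.

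The members and all lists were chosen with earlier results of these data known. All 10 members are named. Of each other list, up to 2 called genes with the largest change in each direction and comparison (at least 5 CPM in the higher stage) are named, with the paralogs Plcg1 and Lck. Some genes that these rules select are not reported here. Igll1, Cd79a, Cd79b, Ptpn6 and Ubash3b were named after their values were seen. Likeness was taken for the members with the largest fall and the most positive value, among genes of at least 10 CPM. With 2 libraries a stage, an exact permutation test of 1 gene cannot go below 0.333. No spike-in was analysed, so changes in total RNA per cell would not be seen.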

Additional observations from a re-analysis of the deposited data

How the results depend on the processing

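Over 417 values of single members under alternatives, 372 kept direction and side of the threshold, 21 lost a call, 12 gained one and 12 changed sign. Leaving out 1 library gave 2 to 8 members called in premalignant vs wild type (7 with all libraries), 0 to 3 in malignant vs premalignant (0) and 5 to 8 in malignant vs wild type cells (7). In malignant vs premalignant cells DESeq2 called 1 member and no filter on low counts 2. Over all genes the calls there were 1031 in the main fit, 2186 with DESeq2 and 2810 without the filter. With only the 2 stages fitted they were 258. The number of genes entered differed between these fits. Where 1 library was left alone in a stage, it was assumed to vary like the others. Pathway calls in premalignant vs wild type cells (49) were 13 to 53 with 1 library left out and 27 at a minimum log2 fold change of 1. In malignant vs premalignant cells (13) they were 0 to 30 with 1 library left out, 23 with DESeq2, 29 without the filter, 4 with only the 2 stages and 8 at an FDR of 0.05. Malignant vs wild type values that changed sign were Btk (-0.022 with upper-quartile normalization, -0.15 with total counts as library size) and Plcg2 (-0.13, -0.25, and -0.049 with at least 10 counts in every library, a filter that drops Lcp2). With 1 library left out, Plcg2 ran from -0.22 to 0.29 and Zap70 from -1.47 to 0.11 in malignant vs wild type cells, and Fyn from -0.11 to 1.08, Plcg2 from -0.55 to 0.0070, Zap70 from -0.081 to 1.54 and Cblb from -0.92 to 0.14 in malignant vs premalignant cells. Changes of log2 ratios from wild type to malignant cells ran from -0.39 to 1.58 for Zap70/Sykb, -5.16 to -2.89 for Lcp2/Blnk, -0.77 to 0.75 for Fyn/Lyn, -1.24 to 0.0087 for Fyn/Blk and -4.28 to -3.95 for Plcg1/Plcg2. Total counts as library size shifted the median of all genes by -0.21 (premalignant) and -0.29 (malignant) vs wild type. Upper-quartile normalization shifted it by -0.085 and -0.17. In each case the cause was not tested.

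The labels give replicates of different stages a shared number and no pairing, and replicate 1 was the deeper library at every stage. By the methods, wild type mice were littermates of the premalignant mice, with no pairs named. Deviations of same-numbered libraries correlated at 0.412 (wild type and premalignant), 0.0569 (wild type and malignant) and 0.128 (premalignant and malignant). With replicate number as a block, members called were 7, 0 and 7, and pathway genes called were 49, 14 and 45, in premalignant vs wild type, malignant vs premalignant and malignant vs wild type cells.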
